A study of Homo sapiens with 4 samples.

Results

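NF-kB factors and feedback regulators are described here across 4 breast cell line arrays through the 14 probes whose annotated gene symbol is one of 10 chosen genes. Of these 10 genes, 9 had a probe, out of 20043 genes on the array. They are the subunit genes NFKB1, NFKB2, RELA and RELB, the inhibitors NFKBIA and TNFAIP3, and the target genes ICAM1, PTGS2 and SOD2. The chosen gene BIRC3 carried no named probe in the annotation used, and it was not analysed here. On the array of MCF10A cells given exosomes with a Dicer antibody inside, 8 of the 9 genes were higher by at least 2-fold than on the untreated MCF10A array. RELA was the exception, at 369 against 547 signal units. Among all 12252 genes compared, 14.8% were at least 2-fold higher. Under all 6 scalings of the arrays 7 of the 9 stayed so, against 4.47% of all genes compared. For MDA-MB-231, and for MCF10A given exosomes without the antibody, only NFKBIA and 1 probe of SOD2 rose above background. Of all genes, 7.91% and 7.83% did so on these arrays, against 55.4% on the untreated MCF10A array and 55.3% on that with the antibody.

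The study asked how vesicles released by a breast cancer line change non-tumorigenic breast epithelial cells, and what the microRNA-processing enzyme Dicer carried in them does. Each of its 4 groups was 1 array, so no value has a replicate, an error or a test. MDA-MB-231, the untreated breast cancer line, donated the exosomes. MCF10A is the non-tumorigenic breast epithelial line, and it was labelled as untreated, as given exosomes of MDA-MB-231 (the exosome array), or as given such exosomes carrying a Dicer antibody (the Dicer antibody array, here the anti-Dicer array). All cultures were grown in serum depleted of exosomes, and the labels state neither dose nor time. No array with a control antibody in the exosomes was analysed here.

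NF-kB is a family of dimeric transcription factors held inactive in the cytoplasm by IkB proteins. Cytokines and microbial products activate kinases that mark IkB for destruction, and the freed dimers enter the nucleus. They switch on genes of inflammation and survival together with their own inhibitors, so the pathway limits itself. In breast epithelial and breast cancer cells the pathway is known for driving cytokine production and cell survival.

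A signal is the deposited brightness of a probe in array units, background included, and probes with a detection p below 0.01 count as detected. The arrays fell into pairs, with 11110 and 11084 genes detected on the untreated and anti-Dicer arrays but 1586 on that of MDA-MB-231 and 1569 on the exosome array. The keratins KRT5 and KRT14 and the epithelial cadherin CDH1 were not detected on any of them, so these markers did not bear out the epithelial label. The keratins KRT8 and KRT18 and the epithelial marker EPCAM were detected on the anti-Dicer array alone, at 371, 165 and 83.7 units. Of 9 epithelial markers on the array, 2 were detected in untreated MCF10A, 5 on the anti-Dicer array and none on the others, with summed signals of 1215, 4236, 493 and 534.9 units on the untreated, anti-Dicer, MDA-MB-231 and exosome arrays. The higher sum on the anti-Dicer array rests on LAMB3, a laminin chain, at 3186 against 145 units, while DSP, a desmosome protein, ran the other way, at 222 against 716. Of 10 fibroblast markers, 10 were detected in untreated MCF10A and 5 on the anti-Dicer array, and their summed signal was 60713 against 2596 units. It was 541 units on both the MDA-MB-231 and the exosome array, where none was detected. These markers move with every difference from the untreated array given here, and their part in those differences was not tested. The leukocyte marker PTPRC, common to white blood cells, was not detected on any array, and neither was the endothelial cadherin CDH5. Of 9 leukocyte markers 3 were detected on each of the untreated and anti-Dicer arrays and 1 on each of the others, with sums of 3163, 1426, 484 and 521 units in the array order given above. CD68 read 2488 units on the untreated and 410 on the anti-Dicer array, CD14 298 and 625, and CSF1R 73.7 and 86.6. Of 7 endothelial markers 2 and 1 were detected on the untreated and anti-Dicer arrays and none elsewhere, with sums of 425.4, 624, 353.9 and 385 units. PECAM1 was detected on both, at 82.2 units on the untreated and 293.5 on the anti-Dicer array, and TEK on the untreated array alone, at 95.6. In bulk RNA, fewer cells that make a transcript and less of it per cell cannot be told apart.

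Promoter windows of these genes were searched for kappa B motifs, the letters that NF-kB dimers are known to bind. The loose motif searched was GGG, any 5 bases and CC, and the strict motif was GGGA, any 1 base and TTTCC. RefSeq promoter windows of build GRCh38.p14, running from 250 bases before to 50 bases after an annotated start, were available for 8 of the 9 genes as 15 windows. Both strands were searched, and every strict match is also a loose one. The loose motif was present in 15 of the 15 windows and in 58.7% of all 35116 windows, so its presence sets these genes little apart. The strict motif was present in 4 of the 15 windows, belonging to NFKB1, NFKB2, NFKBIA and TNFAIP3, and in 0.558% of all windows. The strict form with C as its free base was present in the NFKB2 and TNFAIP3 windows and in 0.191% of all windows. These genes were chosen as members of the pathway, so a higher share among them is a description of the choice. A match is a run of letters and was not tested for binding. The 4 windows with the strict motif are shown with that match in capitals, and that of PTGS2, the member with the largest difference, with its overlapping loose matches in capitals. Each reads 5′ to 3′ along the strand of its gene. NFKB1 lies at chr4:102501109-102501408 on the plus strand, and its match starts 49 bases before the annotated start. NFKB2 lies at chr10:102395455-102395754 on the plus strand with its match 21 bases before the start, NFKBIA at chr14:35404700-35404999 on the minus strand at 81 bases, and TNFAIP3 at chr6:137867009-137867308 on the plus strand at 67 bases. In NFKBIA and TNFAIP3 the motif is on the strand opposite to the gene. PTGS2 lies at chr1:186680374-186680673 on the minus strand, with its run of overlapping matches 225 bases before the start.
NFKB1: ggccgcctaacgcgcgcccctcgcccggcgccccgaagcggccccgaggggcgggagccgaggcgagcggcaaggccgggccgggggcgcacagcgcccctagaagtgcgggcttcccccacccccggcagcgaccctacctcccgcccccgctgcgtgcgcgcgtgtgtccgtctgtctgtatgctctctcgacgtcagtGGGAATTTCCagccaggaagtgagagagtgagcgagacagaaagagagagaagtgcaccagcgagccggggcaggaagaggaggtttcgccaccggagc
NFKB2: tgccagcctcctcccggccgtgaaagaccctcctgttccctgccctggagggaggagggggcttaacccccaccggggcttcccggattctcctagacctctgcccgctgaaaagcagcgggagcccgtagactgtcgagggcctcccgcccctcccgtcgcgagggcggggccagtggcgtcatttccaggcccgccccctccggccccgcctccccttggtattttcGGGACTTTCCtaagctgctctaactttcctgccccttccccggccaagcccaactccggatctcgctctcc
NFKBIA: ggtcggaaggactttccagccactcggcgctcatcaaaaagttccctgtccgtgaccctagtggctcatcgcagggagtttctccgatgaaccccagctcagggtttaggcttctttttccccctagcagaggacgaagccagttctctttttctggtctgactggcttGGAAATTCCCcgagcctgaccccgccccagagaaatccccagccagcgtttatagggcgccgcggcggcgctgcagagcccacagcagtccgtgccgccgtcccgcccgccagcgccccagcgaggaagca
TNFAIP3: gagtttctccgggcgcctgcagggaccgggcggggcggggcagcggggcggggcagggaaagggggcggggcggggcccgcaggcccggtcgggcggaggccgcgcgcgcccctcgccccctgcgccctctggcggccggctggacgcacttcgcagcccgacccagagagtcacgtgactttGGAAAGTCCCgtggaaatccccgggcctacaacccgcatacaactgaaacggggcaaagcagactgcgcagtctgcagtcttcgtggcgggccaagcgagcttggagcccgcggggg
PTGS2: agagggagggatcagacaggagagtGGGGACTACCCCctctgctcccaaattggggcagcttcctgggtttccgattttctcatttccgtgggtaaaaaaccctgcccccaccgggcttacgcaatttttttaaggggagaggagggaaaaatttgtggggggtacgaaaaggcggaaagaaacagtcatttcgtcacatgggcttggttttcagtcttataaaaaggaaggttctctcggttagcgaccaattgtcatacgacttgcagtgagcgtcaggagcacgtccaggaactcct

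**Figure D1:**
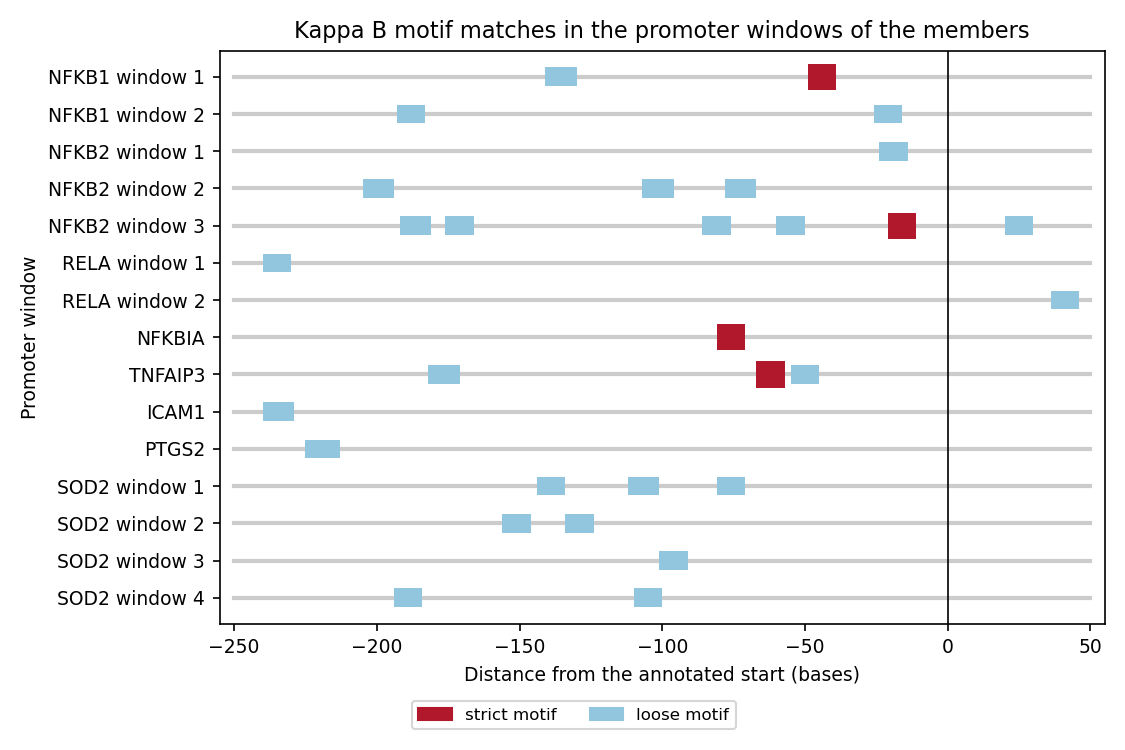
Positions of kappa B motif matches in the 15 promoter windows of 8 genes, in bases from the annotated start, with the loose motif in pale blue and the strict motif in red. Each window holds a loose match, and the strict motif stands in 4 windows, those of NFKB1, NFKB2, NFKBIA and TNFAIP3, all before the start.

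The anti-Dicer array against the untreated array sets cells given antibody-loaded exosomes against cells left alone, by their labels. Among the chosen subunit genes, NFKB1, NFKB2 and RELB were higher on the anti-Dicer array, and RELA was not. Folds come from background-corrected values made equal in distribution between the arrays, and the smallest fold over 6 scalings of the arrays, or their range, is given with them. The scalings are those values, the same with a larger offset, the same with no background correction, 2 with median scaling or no scaling after background correction, and the deposited signals alone. A direction is stated only where all 6 share it.

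NFKB1 encodes a precursor that is cut to the p50 subunit. It read 45.9 units on the MDA-MB-231 array, 51.8 on the exosome array, 1536 on the untreated array and 4734 on the anti-Dicer array, and was detected on the last pair alone. It was 3.83-fold higher on the anti-Dicer array than on the untreated array, with 2.96-fold as the smallest value over the scalings. NFKB2 encodes the precursor of p52, the subunit of the alternative pathway, and its 3 probes gave different pictures. The probe used, which has the highest mean normalized log2 value over the 4 arrays, read 60.8, 63.0, 190.2 and 579 units in the same order of arrays, and its second probe, brighter on both arrays where either was detected, 41.7, 44.0, 261 and 685. Both were detected on the untreated and anti-Dicer arrays alone, while the remaining probe stayed between 42.8 and 46.7 units and was not detected on any array. NFKB2 was 3.57-fold higher on the anti-Dicer array, and 1.86-fold with no background correction, which puts it below 2-fold there.

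RELB encodes the usual partner of p52. It read 56.9 units on the MDA-MB-231 array, 54.8 on the exosome array, 138 on the untreated array and 526 on the anti-Dicer array. It was 4.41-fold higher on the anti-Dicer array than on the untreated array, and 2.03-fold at the smallest. RELA encodes p65, the subunit that carries most of the activating function of the classical dimer. It read 57.3, 59.2, 547 and 369 units in the same order of arrays. Its log2 difference was -0.40, between -0.70 and -0.20 over the scalings, which is short of 2-fold under each of them. RELA was thus the only one of these 4 subunit genes not higher on the anti-Dicer array.

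The genes for both inhibitors were higher on the anti-Dicer array. NFKBIA encodes IkB alpha, which traps NF-kB dimers in the cytoplasm and is remade on activation. It read 4451 units on the MDA-MB-231 array, 5875 on the exosome array, 2341 on the untreated array and 7273 on the anti-Dicer array. It was detected on all 4 arrays, by deposited signal lowest on the untreated array and highest on the anti-Dicer array. After normalization it read 12.06 on the log2 scale on the anti-Dicer array, below 13.50 on the MDA-MB-231 and 13.22 on the exosome array. It was 4.03-fold higher on the anti-Dicer array than on the untreated array, and 2.97-fold at the smallest. TNFAIP3 encodes A20, a ubiquitin-editing enzyme that shuts down signalling from cytokine receptors to NF-kB. It read 59.9, 61.7, 106 and 604 units in the same order, and was detected on the untreated and anti-Dicer arrays alone. It was 6.84-fold higher on the anti-Dicer array, and 2.47-fold at the smallest.

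The target genes spanned the range from SOD2 to PTGS2. ICAM1 encodes an adhesion protein to which leukocyte integrins bind. It read 63.9 units on the MDA-MB-231 array, 59.3 on the exosome array, 57.2 on the untreated array and 412 on the anti-Dicer array. It was detected on the anti-Dicer array alone, so its difference from the untreated array is a bound, at least 2.44-fold higher. That bound is set against the lowest detected level of the untreated array and is the smallest over the scalings.

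PTGS2 encodes cyclooxygenase 2, the inducible enzyme of prostaglandin synthesis. Its brighter probe read 50.9, 61.1, 228 and 3009 units on the MDA-MB-231, exosome, untreated and anti-Dicer arrays, and its other probe 49.8, 51.9, 86.0 and 1649. Both were detected on the untreated and anti-Dicer arrays alone, and the anti-Dicer array was the higher by far on each. PTGS2 was 16.03-fold higher there by the brighter probe, and 4.78-fold at the smallest. Of all 12252 genes compared, 79 had a difference at least as high, PTGS2 included.

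SOD2 encodes the superoxide dismutase of mitochondria, which turns superoxide into peroxide. Its brightest probe read 837 units on the MDA-MB-231 array, 3407 on the exosome array, 2887 on the untreated array and 8974 on the anti-Dicer array, and was detected on all 4. Its second probe, annotated to another SOD2 transcript, read 51.6, 48.5, 658 and 3884 units and was detected on the untreated and anti-Dicer arrays alone. Its remaining probe was detected on the anti-Dicer array alone, at 126 units against 49.8, 49.3 and 47.9 on the MDA-MB-231, exosome and untreated arrays. By deposited signal all 3 probes were highest on the anti-Dicer array, but they disagree on the other arrays. After normalization the brightest probe read 12.36 on the log2 scale on the anti-Dicer array, below 12.91 on the exosome and 12.72 on the MDA-MB-231 array. By the brightest probe SOD2 was 3.96-fold higher on the anti-Dicer array than on the untreated array, and 2.97-fold at the smallest.

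**Figure D2:**
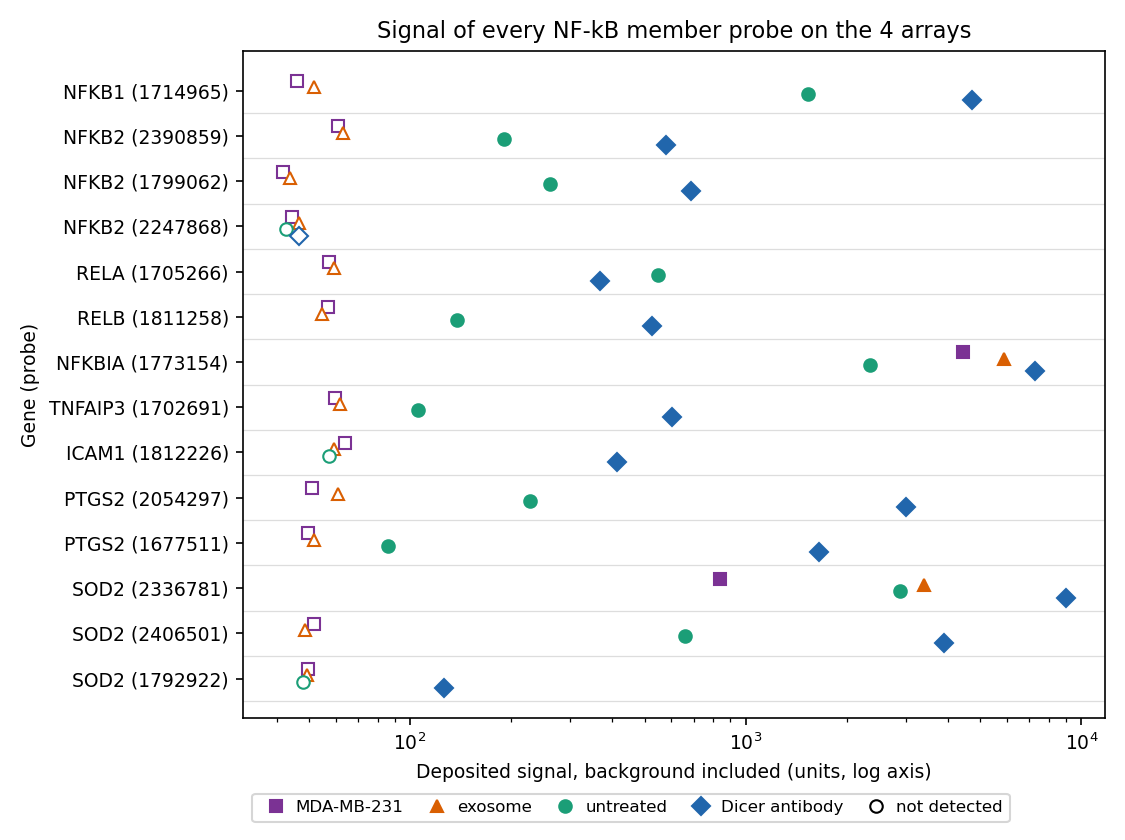
Deposited signal in array units, on a log axis, of each of the 14 probes on the 4 arrays, 1 array per group, with filled symbols for detected probes and open ones for probes not detected. The Dicer antibody array is the highest for every detected probe except that of RELA, and NFKBIA and 1 SOD2 probe are detected on all 4 arrays.

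Taken as a group, 8 of 9 genes were at least 2-fold higher on the anti-Dicer array than on the untreated array and none was lower, against 14.8% higher and 16.7% lower among all 12252 genes compared. The median log2 difference of the 9 genes was 2.01, and that of all genes compared was -0.01. The members, and the lists below, were chosen with earlier results of these data known, so their shares may in part describe the choice. Under all 6 scalings 7 of the 9 stayed at least 2-fold higher, NFKB2 being the gene that did not, against 4.47% of all genes compared, and none was lower under all 6, against 6.12%. In that comparison 590 of 12252 genes had a difference at least as high as that of NFKB1, 468 as that of RELB and 239 as that of TNFAIP3, each count including the gene named. Among genes detected on both, median scaling moved the median to -0.22, the deposited signals to -0.11 and background correction alone to -0.15, and the 8 genes were higher in spite of these shifts. The summed fibroblast markers were lower in the same comparison, and the summed epithelial markers higher, by the values given above, the latter through LAMB3.

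**Figure D3:**
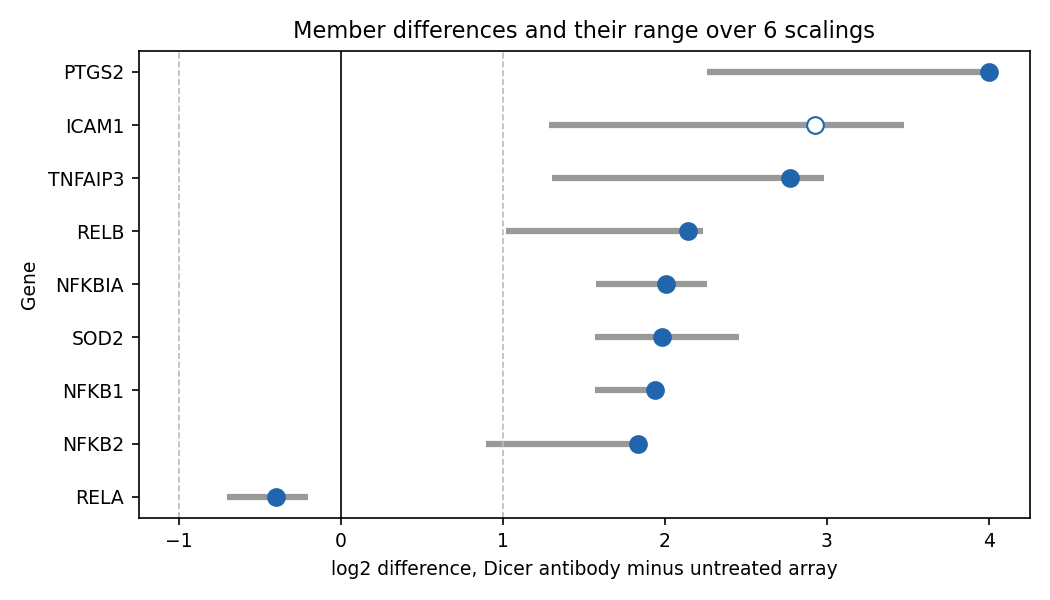
Log2 difference of 9 genes between the Dicer antibody and untreated arrays, 1 array each, with a grey line for the range over 6 scalings, dashed lines at 2-fold and an open point for a bound. RELA lies below 0, at -0.40, and the other genes run from 1.84 for NFKB2 to 4.003 for PTGS2.

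The other genes of the pathway were read from 11 lists, 118 genes in all, 112 of them on the array and 96 compared between the anti-Dicer and untreated arrays. Of these, 29 were higher and 10 lower by at least 2-fold, with a median log2 difference of 0.081. Among all 12252 genes compared, 14.8% were higher and 16.7% lower with a median of -0.01, and the counts of each list are to be read beside those shares. A count says nothing of a list against others, since no list was tested.

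Among the remaining Rel and IkB genes, 3 of 6 were higher and none was lower, with a median of 1.46. NFKBIZ, a nuclear IkB protein that helps induce interleukin genes, read 269.5 units on untreated MCF10A and 1905 on the anti-Dicer array, 8.62-fold higher and 3.13-fold at the smallest. NFKBIE, which encodes the inhibitor IkB epsilon, was 6.41-fold higher and 2.40-fold at the smallest, at 597 against 111 units. BCL3, a nuclear partner of p50 and p52, was 3.80-fold higher and NFKBIB, the inhibitor IkB beta, differed by 0.998 on the log2 scale. With no background correction BCL3 was 1.96-fold higher. REL, the gene of the remaining subunit, was detected on the anti-Dicer but not the untreated array, at 113 against 64.6 units, and its bound of at least 1.24-fold is short of 2-fold.

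Of 11 kinase genes compared, 1 was higher and none lower, with a median of 0.022. The gene was MAP3K14, the kinase that starts the alternative pathway, at 151 against 77.0 units, and its fold of 2.13 became 1.36 at the smallest. IKBKG, the scaffold of the IkB kinase complex, differed by 0.42 on the log2 scale, and CHUK, one of its catalytic subunits, by 0.34. Of 13 adaptor and ligase genes, 2 were higher and 2 lower, with a median of -0.02. IRAK2, a kinase-like adaptor of interleukin-1 and Toll-like receptors, read 287 units on untreated MCF10A and 2338 on the anti-Dicer array, 9.85-fold higher and 3.47-fold at the smallest. TRAF1, an adaptor that NF-kB induces, was 3.47-fold higher, and MYD88, the adaptor through which those receptors signal, was 3.05-fold lower, at 191 against 615.5 units. TRADD, the adaptor of the main TNF receptor, was 2.18-fold lower. The folds of TRAF1, MYD88 and TRADD were 1.68, 1.73 and 1.47 at the smallest.

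Of 8 other brakes on the pathway, 2 were higher and none lower, with a median of 0.084. ZC3H12A, an RNase that destroys inflammatory messenger RNAs, was 4.34-fold higher and 2.11-fold at the smallest, at 914 against 248 units. TNIP1, which works with A20, was 3.56-fold higher and 1.97-fold at the smallest. CYLD, a deubiquitinase that restrains the pathway, differed by -0.62 on the log2 scale. Among 8 receptor genes compared, 1 was higher and 2 lower, with a median of -0.23. LTBR, the lymphotoxin beta receptor, was 2.97-fold lower and 2.06-fold at the smallest, at 1087 against 3790 units, and TNFRSF1A, the main TNF receptor, was 2.02-fold lower and 1.47-fold at the smallest.

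Of 6 ligand genes compared, 4 were higher and none lower, with a median of 2.18. TNF, the founding ligand of its family, read 41.8 units on the untreated array, where it was not detected, and 519 on the anti-Dicer array, at least 2.75-fold higher. IL1B was detected on both arrays, at 116 and 4550 units. TNFSF13B, a survival factor for B cells, differed by -0.50 on the log2 scale. Of 19 further target genes compared, 9 were higher and 3 lower, with a median of 0.80. IL6, which encodes an inflammatory cytokine, was 33.7-fold higher, between 18.5-fold and 53.4-fold over the scalings, at 18620.3 against 988 units. The neutrophil attractant CXCL8 was 12.6-fold higher, between 5.94-fold and 33.0-fold, and its 20768 against 3340 units stand near the highest signal of the anti-Dicer array, 21382 units. CCL20, a chemokine gene not detected on the untreated array, was at least 6.56-fold higher. The monocyte attractant CCL2 went the other way, from 6224 units on the untreated array to 80.0 on the anti-Dicer array.

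**Figure D4:**
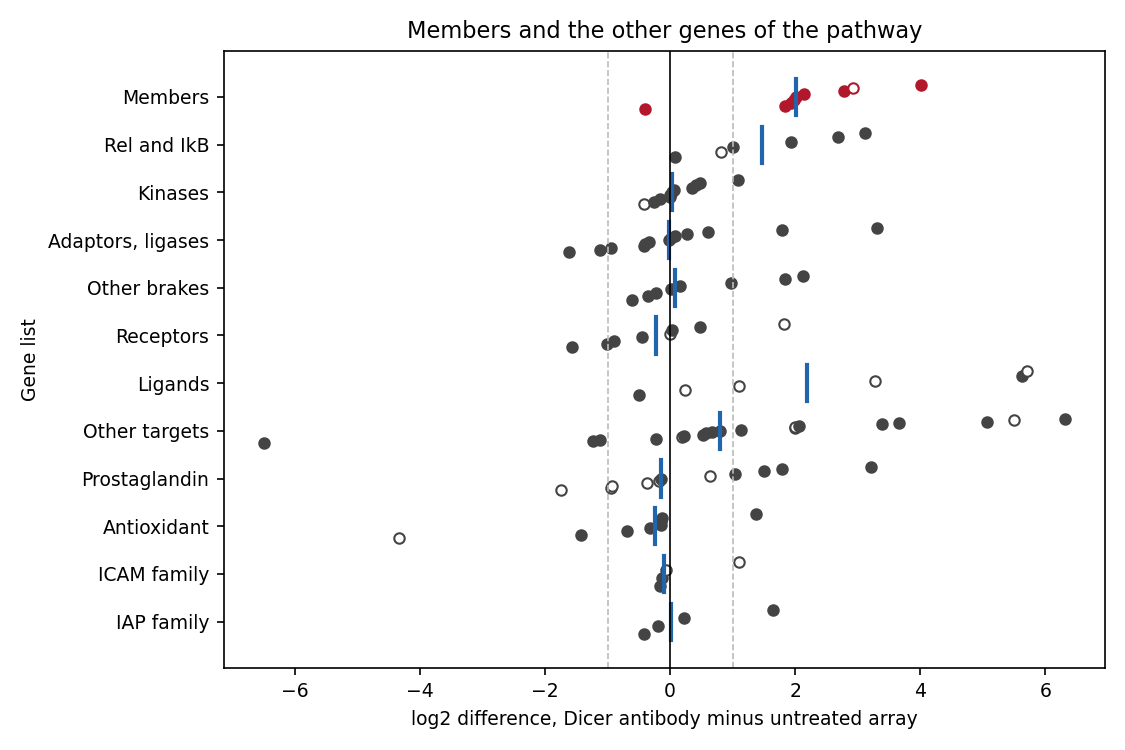
Log2 difference between the Dicer antibody and untreated arrays, 1 array each, for 9 members and the genes of 11 pathway lists compared, with open points for bounds, blue bars at the list medians and dashed lines at 2-fold. Members have a median of 2.01 and ligands of 2.18, while kinases, adaptors and brakes have medians near 0.

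Patterns most like those of PTGS2 and RELA were sought by the distance between normalized log2 values over the 4 arrays, among 9941 other genes detected on the untreated and anti-Dicer arrays. The gene nearest to PTGS2 was IRAK2, at a distance of 1.33, followed by SLC25A37, a mitochondrial iron importer, at 1.43, and IL32, an inflammatory cytokine, also at 1.43. IL32 read 161 units on untreated MCF10A and 2967 on the anti-Dicer array. Nearest to RELA, the member with the smallest difference, were the deubiquitinase partner WDR48 at 0.43, the proteasome-bound deubiquitinase USP14 at 0.48 and SCAF8 at 0.51. Only 4 arrays stand behind each distance, and PTGS2 and RELA were each detected on 2 of them. Each distance thus rests in part on values of genes not detected. PTGS2 read 61.1 units on the exosome array and 50.9 on that of MDA-MB-231, neither detected, but 6.76 and 4.50 on the normalized log2 scale. SLC25A37 read 358 units on untreated MCF10A and 1345 on the anti-Dicer array, against 228 and 3009 for PTGS2.

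Comparisons with the MDA-MB-231 and exosome arrays set arrays with few detected genes against arrays with many, so that group and number of detected genes cannot be told apart. They share arrays with each other and with the comparison above. Of the 9 genes, 9 were detected on the anti-Dicer array and 8 on the untreated array, against 55.3% and 55.4% of all genes. On each of the other arrays 2 of 9 were detected, NFKBIA and SOD2, against 7.91% and 7.83% of all genes. Both were detected on all 4 arrays, as were 5.37% of all genes.

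What the cancer exosomes do to MCF10A cells was asked by setting the exosome array against untreated MCF10A. NFKBIA was higher on the exosome array, at 5875 against 2341 units, 9.003-fold after normalization and 2.51-fold at the smallest over the scalings, which is the ratio of the deposited signals. Under the rule of 2-fold in all 6 scalings, 1 of the 8 genes compared was higher, NFKBIA, as were 142 of all 11327 genes compared, or 1.25%, and none was lower, against 3.93%. SOD2 was 5.78-fold higher by its brightest probe, at 3407 against 2887 units, but 1.18-fold by the deposited signals. The second SOD2 probe went from 658 units on the untreated array to 48.5 on the exosome array. By normalized values 2 of 8 genes were at least 2-fold higher and none lower, against 12% higher and 5.37% lower of all genes compared. NFKB1, NFKB2, RELA, RELB, TNFAIP3 and PTGS2 were detected in untreated MCF10A and not on the exosome array. Their bounds were 0 after quantile normalization, so no fold is given. The lowest detected value of the exosome array, 9.66 on the log2 scale, lay above their values in untreated MCF10A. None of them could therefore be called lower after normalization or under all 6 scalings. By the deposited signals alone 4 members were lower, as were 7472 of all 11327 genes compared. ICAM1 was detected on neither.

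The MDA-MB-231 array was also set against untreated MCF10A, donor line against recipient line. NFKBIA was again higher, at 4451 against 2341 units, 10.9-fold after normalization and 1.90-fold at the smallest. SOD2 was 5.08-fold higher after normalization, while its signals, 837 against 2887 units, run the other way, so it has no settled direction. Of 8 genes compared, 2 were higher and none lower by normalized values, against 12.3% and 5.52% of all genes, and none was 2-fold higher or lower under all 6 scalings, against 0.326% and 4%. The genes detected on the untreated array alone were the same 6 as in the comparison with the exosome array. Their bounds were again 0 after quantile normalization, so none of them could be called lower there or under all 6 scalings.

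The exosome array against the MDA-MB-231 array lies within the pair with few detected genes, and NFKBIA and SOD2 were the only genes compared. Neither differed by 2-fold after normalization, where 4.36% of genes were higher and 3.64% lower, or 2% and 0.975% under all 6 scalings. The log2 difference of NFKBIA was -0.28, and it was 0.40 by the deposited signals. That of SOD2 was 0.19, and the signals of its brightest probe, 3407 against 837 units, gave 2.03.

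The anti-Dicer array against the exosome array isolates the antibody by its labels, with the limit on a control antibody given above. NFKB1 was at least 2.87-fold higher on the anti-Dicer array, at 4734 against 51.8 units, under each of the 6 scalings. PTGS2 was at least 1.67-fold higher, at 3009 against 61.1 units. NFKBIA, at 7273 against 5875 units, was 2.24-fold lower after normalization and 1.24-fold higher by the deposited signals, so it has no settled direction. Neither has SOD2 by its brightest probe. The second SOD2 probe read 3884 against 48.5 units, with a bound of 1.45 on the log2 scale after normalization, and the remaining probe had a bound of 0. Of 9 genes compared, 2 were higher by 2-fold and 1 lower after normalization, against 4.86% and 12.2% of all genes, and 1, NFKB1, was higher under all 6 scalings and none lower, against 3.53% and 1.22%. For NFKB2, RELA, RELB, TNFAIP3 and ICAM1 the bound was 0 after quantile normalization. The lowest detected value of the exosome array, 9.66 on the log2 scale, lay above their values on the anti-Dicer array, so they could not be called. By the deposited signals alone 8 genes were higher, as were 7234 of all 11223 genes compared. Against the MDA-MB-231 array the values were alike. NFKB1 was at least 2.90-fold and PTGS2 at least 1.68-fold higher on the anti-Dicer array, and NFKBIA and the brightest SOD2 probe had no settled direction. The second SOD2 probe read 3884 against 51.6 units, with a bound of 1.47 on the log2 scale, and the remaining probe had a bound of 0. There too 2 of 9 genes were higher and 1 lower, against 5.06% and 12.4% of all genes, and NFKB1 alone was higher under all 6 scalings and none lower, against 3.61% and 0.24%. NFKB2, RELA, RELB, TNFAIP3 and ICAM1 again had bounds of 0 after quantile normalization and could not be called.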

How the data were processed

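RNA of 4 samples was measured on a 1-colour Illumina bead array. The authors deposited intensity values without normalization, each beside a detection p-value, and a second table whose deposited intensity values are normalized between arrays for 3 arrays; for the exosome array it holds the detection p-value instead (largest gap 0.0026). How those values were normalized is not given in the sources used here. limma was used, per the submitters' processing notes.

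Of 47322 probes, 30110 carried 1 gene symbol in the platform annotation, 8 several and 17204 none, and 30071 symbols were updated by gene identifier. Signals were background-corrected from the detection p-values, quantile-normalized and logged with neqc over all arrays (limma 3.58.1, R 4.3.3, offset 16). For each gene the probe with the highest mean normalized log2 value over all arrays was used. Genes seen on 1 or both arrays of a comparison entered it. Where only 1 detected the gene, the difference is a bound against the dimmer array, taken at its lowest detected value or the gene's own, whichever is higher; "at least" gives its smallest size over 6 scalings. The procedure was tested on a simulated pair of arrays with known folds. Both were built from the untreated array, so the pair does not stand for arrays that differ in number of detected genes. Tables were handled in Python 3.11.15 with numpy 2.4.6 and pandas 2.3.3 and figures made in matplotlib 3.10.9.

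Since each group has 1 array, no test, error or interval could be given, and precision is limited by the number of arrays. The members and lists were chosen with earlier results of these data known. Genes named from a pathway list are those with the largest difference among genes detected on both arrays in 1 direction under all scalings, up to 4 a list, and up to 2 bounds of at least 2-fold; the text names some of them. REL, PTGS1, SOD1, ICAM2, ITGAL and ITGAM were named outside that rule, with their values known. The 3 genes nearest in Euclidean distance were named for the members with the largest and smallest difference.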

Additional observations from a re-analysis of the deposited data

How the results depend on the processing

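The 10 other settings changed 1 choice each, except the deposited signals alone, which drop background correction and normalization, and the authors' value table, which replaces all processing. The 8 genes higher on the Dicer antibody than the untreated array kept their sign under all 10 alternatives and RELA stayed between -0.70 and -0.20, while the number of members past 2-fold stayed within 1.5 times of 8. With no replicate, no setting can be preferred. In each case below the cause was not tested.

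Without background correction the members' median in that comparison became 1.30, and the pathway lists gave 14 higher and 5 lower genes with a median of 0.0375. The authors' value table gave 6 lower genes and a median of 0.0512 for the lists, and median scaling a median of -0.0077. Of all genes called 2-fold in that comparison 47.0% were higher, and 36.3% under median scaling. There 1815 genes were called higher and 2050 lower, against 622 and 780 without background correction and 1168 and 1314 in the authors' table.

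For the exosome against the untreated array, members higher and lower numbered 1 and 5 under median scaling, 1 and 5 with no normalization between arrays, 1 and 4 by deposited signals, and 4 and 3 with no detection filter. Among all 11327 genes compared, 218 were higher and 8013 lower under median scaling, and 174 and 8358 with no normalization. By deposited signals 142 and 7472 were, and 5441 and 6514 of 20043 with no detection filter. The mean over probes gave 1 higher member, against 1099 of all 11587 genes, and SOD2 at -0.42. For MDA-MB-231 against the untreated array the same 4 settings gave 1 and 6 members, 0 and 7, 0 and 6, and 5 and 3, and the mean over probes 1 higher. Among all 11358 genes compared, the first 3 gave 86 and 8693, 54 and 9275, and 37 and 8182. No detection filter gave 5306 and 6588 of 20043, and the mean over probes 1131 higher of 11613. SOD2 there became -1.48 under median scaling, -1.83 with no normalization, -1.79 by deposited signals and -0.41 as a mean over probes. For the exosome against the MDA-MB-231 array 1 member was higher under each of the 4 settings and 2 were lower with no detection filter. Among all 1948 genes compared, 579, 655 and 486 were higher under the first 3. With no detection filter 2906 were higher and 2718 lower of 20043.

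For the Dicer antibody against the exosome array, 8 members were higher and 0 lower under median scaling, no normalization and deposited signals, 7 were higher with no detection filter and 1 without background correction. NFKBIA became 0.0097, 0.31 and 0.31 under the first 3 of these. Among all 11223 genes compared, the same 3 settings gave 7662, 8194 and 7234 higher and 236, 163 and 137 lower. With no detection filter 6342 of 20043 were higher, and 403 of 11223 without background correction. Against the MDA-MB-231 array the same 3 settings gave 8 members higher and 0 lower, with NFKBIA at 0.28, 0.71 and 0.71. Without background correction 1 member was higher, and 2 were lower with a detection p below 0.05 and with no detection filter. Among all 11259 genes compared, the 3 settings gave 8396, 9167 and 8045 higher and 75, 42 and 27 lower, and no background correction 412 higher. A detection p below 0.05 gave 2288 lower of 12519, and no detection filter 5361 of 20043. No paired analysis was possible because each group holds 1 array.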

Other observations

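Gene families around 4 of the chosen genes were compared between the Dicer antibody and untreated arrays, where 14.8% of all genes compared were at least 2-fold higher and 16.7% lower. No list was tested. Around PTGS2, 4 of 11 prostaglandin genes compared were at least 2-fold higher and 1 lower, with a median log2 difference of -0.15. Without background correction 1 was higher and none lower, and 3 were lower under median scaling, with no normalization between arrays, with a detection p below 0.05, with no detection filter and with only the 2 arrays normalized together, 2 as a mean over probes and none in the authors' value table. PTGER4, a receptor for prostaglandin E2, was 9.24-fold higher and 2.90-fold at the smallest over the scalings, at 808 against 106 units, and PTGES, which makes prostaglandin E2 downstream of PTGS2, was 3.44-fold higher, at 2044 against 720.1 units, and just short of 2-fold with no background correction. The prostaglandin E synthases PTGES2 and PTGES3 were 2.84-fold and 2.04-fold higher, and 1.76-fold and 1.47-fold at the smallest. PTGS1, the constitutive cyclooxygenase, differed by -0.15 on the log2 scale.

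Around SOD2, 1 of 8 other antioxidant genes was higher and 2 lower, with a median of -0.24. The extracellular superoxide dismutase SOD3 went from 1230 units on untreated MCF10A to 46.6 with the Dicer antibody, where it was not detected, at least 4.06-fold lower. GPX1, a glutathione peroxidase, was 2.69-fold lower and 2.66-fold at the smallest, but short of 2-fold as a mean over its probes, which leaves 1 lower gene in the list. The cytosolic dismutase SOD1 differed by -0.15 on the log2 scale. TXNRD2, the thioredoxin reductase of mitochondria, was 2.59-fold higher and 1.67-fold at the smallest, and no gene of the list was higher without background correction or as a mean over probes.

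Around ICAM1, 1 of 4 genes of its family and its integrin receptors compared was higher and none lower, with a median of -0.09. That gene was ICAM2, an adhesion protein of vessel and blood cells, at 135 units against 53.7 on the untreated array, where it was not detected. Its bound was at least 1.35-fold higher, and the gene is named after its values were seen. The integrin chains ITGAL and ITGAM, which bind ICAM1 on leukocytes, were not detected on either array, and ITGB2 differed by -0.16 on the log2 scale. Of 4 other inhibitor of apoptosis genes compared 1 was higher and none lower, with a median of 0.015. That gene was BIRC5, a protein of dividing cells, at 904 against 342 units, 3.12-fold higher and 1.80-fold at the smallest, while BIRC2 differed by -0.42 on the log2 scale.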
